A study of Homo sapiens with 12 samples.

Results

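The loci described here are those of 38 genes of the TNF and NF-kappaB response, of 32431 human genes with a known position and strand. They were chosen by name, and each locus ran from 5 kb before to 5 kb after the gene. Promoters, within 1 kb of a start site, were kept apart. Bulk ATAC-Seq, which finds open chromatin through cuts by the Tn5 transposase, had been run in 3 AML cell lines. MOLM13 and MV4-11 harbor an MLL1 rearrangement (MLL1-r) and OCI-AML3 expresses mutant NPM1 (mtNPM1). Each line was studied as control and after 16 h with 500 nM of VTP50469, a Menin inhibitor (MI) also called SNDX-50469, and all cells were cryopreserved before nuclei were isolated. There were 2 libraries in each of the 6 groups, 12 in all, and nothing in the labels says that these came from separate cultures, so the spread between them may be technical. MV4-11 cells grew in IMDM and the other lines in RPMI medium, and mtNPM1 is represented by 1 line, so line, genotype and medium cannot be told apart.

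NF-kappaB is a family of dimeric transcription factors that inhibitor proteins hold in the cytoplasm. TNF, interleukin-1 or a ligand of a Toll-like receptor activates a kinase that marks the inhibitors for destruction, and the freed dimers bind kappaB sites in the promoters and enhancers of cytokine, chemokine, adhesion and survival genes. Several targets, such as NFKBIA and TNFAIP3, switch the pathway off again. In myeloid cells the pathway is known for the release of neutrophil and monocyte chemokines and for survival of leukemia cells.

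The promoters of the CXC chemokines and of 2 regulators are shown first, because the CXC chemokine promoters differed between the lines and because 5 of the 6 windows hold a match to the NF-kappaB consensus. Each is the run of 250 bases before a start site on the strand of the gene, from RefSeq on GRCh38.p14, with matches to the NF-kappaB consensus (kappaB, searched on both strands) in capitals. They lie at chr4:73869143-73869392 (CXCL1, plus strand), chr4:74099196-74099445 (CXCL2, minus), chr4:74038690-74038939 (CXCL3, minus), chr4:73740319-73740568 (CXCL8, plus), chr10:102394328-102394577 (NFKB2, plus) and chr14:35404750-35404999 (NFKBIA, minus).
CXCL1: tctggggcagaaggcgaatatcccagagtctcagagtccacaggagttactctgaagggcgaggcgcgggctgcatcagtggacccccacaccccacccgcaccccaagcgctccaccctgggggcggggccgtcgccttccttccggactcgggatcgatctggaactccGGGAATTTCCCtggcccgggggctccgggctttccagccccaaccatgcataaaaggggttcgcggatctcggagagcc
CXCL2: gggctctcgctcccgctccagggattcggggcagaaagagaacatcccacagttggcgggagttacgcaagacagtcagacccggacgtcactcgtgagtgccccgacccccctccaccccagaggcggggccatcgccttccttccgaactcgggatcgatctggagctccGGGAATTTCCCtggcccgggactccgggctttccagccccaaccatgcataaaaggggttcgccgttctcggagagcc
CXCL3: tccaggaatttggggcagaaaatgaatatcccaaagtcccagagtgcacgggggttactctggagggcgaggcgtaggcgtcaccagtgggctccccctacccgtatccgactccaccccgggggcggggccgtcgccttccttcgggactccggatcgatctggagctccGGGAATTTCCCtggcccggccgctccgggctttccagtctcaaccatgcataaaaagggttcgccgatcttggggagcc
CXCL8: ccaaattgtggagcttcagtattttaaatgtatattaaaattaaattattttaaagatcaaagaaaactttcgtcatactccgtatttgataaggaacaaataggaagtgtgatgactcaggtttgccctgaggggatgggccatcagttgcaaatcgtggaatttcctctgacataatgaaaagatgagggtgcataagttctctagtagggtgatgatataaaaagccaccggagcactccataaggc
NFKB2: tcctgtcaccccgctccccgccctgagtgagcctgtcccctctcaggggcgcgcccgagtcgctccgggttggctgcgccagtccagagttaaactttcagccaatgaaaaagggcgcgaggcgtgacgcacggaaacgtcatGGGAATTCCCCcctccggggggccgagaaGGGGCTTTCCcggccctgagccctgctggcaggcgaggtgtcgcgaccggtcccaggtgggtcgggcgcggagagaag
NFKBIA: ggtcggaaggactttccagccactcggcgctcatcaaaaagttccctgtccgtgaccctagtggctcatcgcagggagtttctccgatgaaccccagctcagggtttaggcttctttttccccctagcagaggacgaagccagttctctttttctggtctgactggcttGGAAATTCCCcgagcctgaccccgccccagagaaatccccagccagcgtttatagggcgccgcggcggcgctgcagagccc

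The matched stretch began 79 bases before the start site of CXCL1 and of CXCL3 and 78 bases before that of CXCL2. In NFKBIA it began 81 bases before the start site. In NFKB2 the window shown is that of the start site at chr10:102394578, and the matched stretches began 107 and 78 bases before it. The window before the NFKB2 start site at chr10:102394110 held no match. The window of CXCL8 held no exact match to the consensus, and near matches were not counted. It does hold ggaatttcc, which also lies inside the matched stretch of CXCL1, CXCL2 and CXCL3. The lack of an exact match thus does not show that CXCL8 lacks a kappaB site. Over the 31 member genes with a promoter sequence, 14 (45.2%) held a match before a start site, against 9 of 43 (20.9%) of the other pathway genes and 6.28% of all 27305 genes with a sequence. The other members with a match were NFKB1, REL, NFKBIZ, NFKBIB, TNFAIP3, TNIP1, CYLD, BIRC3 and IL6. No sequence is shown for RELB, NFKBIE, CCL2, CCL4, IER3, LY96 and RIPK2. The windows of CXCL1 and CXCL3 were 81.4% identical in a global alignment, those of CXCL2 and CXCL3 73.4% and those of CXCL1 and CXCL2 70.1%, whereas CXCL8 was at most 47.9% identical to any of them. How the authors treated reads that fit several copies is not given in the sources used here, and the part of such reads was not tested.

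The deposited lists held 68674 to 145572 peaks per library, with the most in MV4-11 (115819 to 145572) and fewer in MOLM13 (79426 to 103111) and OCI-AML3 (68674 to 94532). The lists do not give sequencing depth. Read numbers at the summits, recovered from fold and p, had a median of 9 to 13 per library and were at least 3. Where no peak was called, the site need not be closed, since depth limits the calls. The myeloid promoters of SPI1 and CEBPA were called in 12 of 12 libraries, whereas CD33 was called in 6, CSF3R and TYROBP in 8 and FCER1G in 4. Of the T cell, B cell, erythroid and epithelial markers reported here, CD3E, CD3G, GATA1 and CDH1 were called in 0 libraries, CD3D and HBB in 1, EPCAM and KRT8 in 4, CD79A in 7 and PAX5 in 8, and their part in the results was not tested.

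Most member promoters had a peak in every library of the 3 lines, whereas most distal regions did not. Of the 38 member promoters, 31 (81.6%) were called in all 12 libraries, against 54.4% of 19626 protein-coding genes. Of 50 other genes of the pathway, 37 (74%) were. CCL4, a monocyte chemokine, had no peak in any library, at its promoter or elsewhere in its locus, and the remaining 6 (IL6, CXCL8, CXCL1, CXCL3, CCL2 and TNFAIP2) were called in some libraries. Peaks in the loci merged into 309 regions of 334907 in the series, 66 at promoters and 243 distal. Of these, 58 (18.8%) were called in all 12 libraries, against 6.97% of all regions, and 118 (38.2%) were called in 1 library, against 55.3% of all. Within the members the split followed position, since 53.0% of the promoter regions but 9.47% of the distal regions were called in all 12. Shares by position over all regions are not given here. The part of position in the comparison with all regions was thus not tested.

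**Figure D1:**
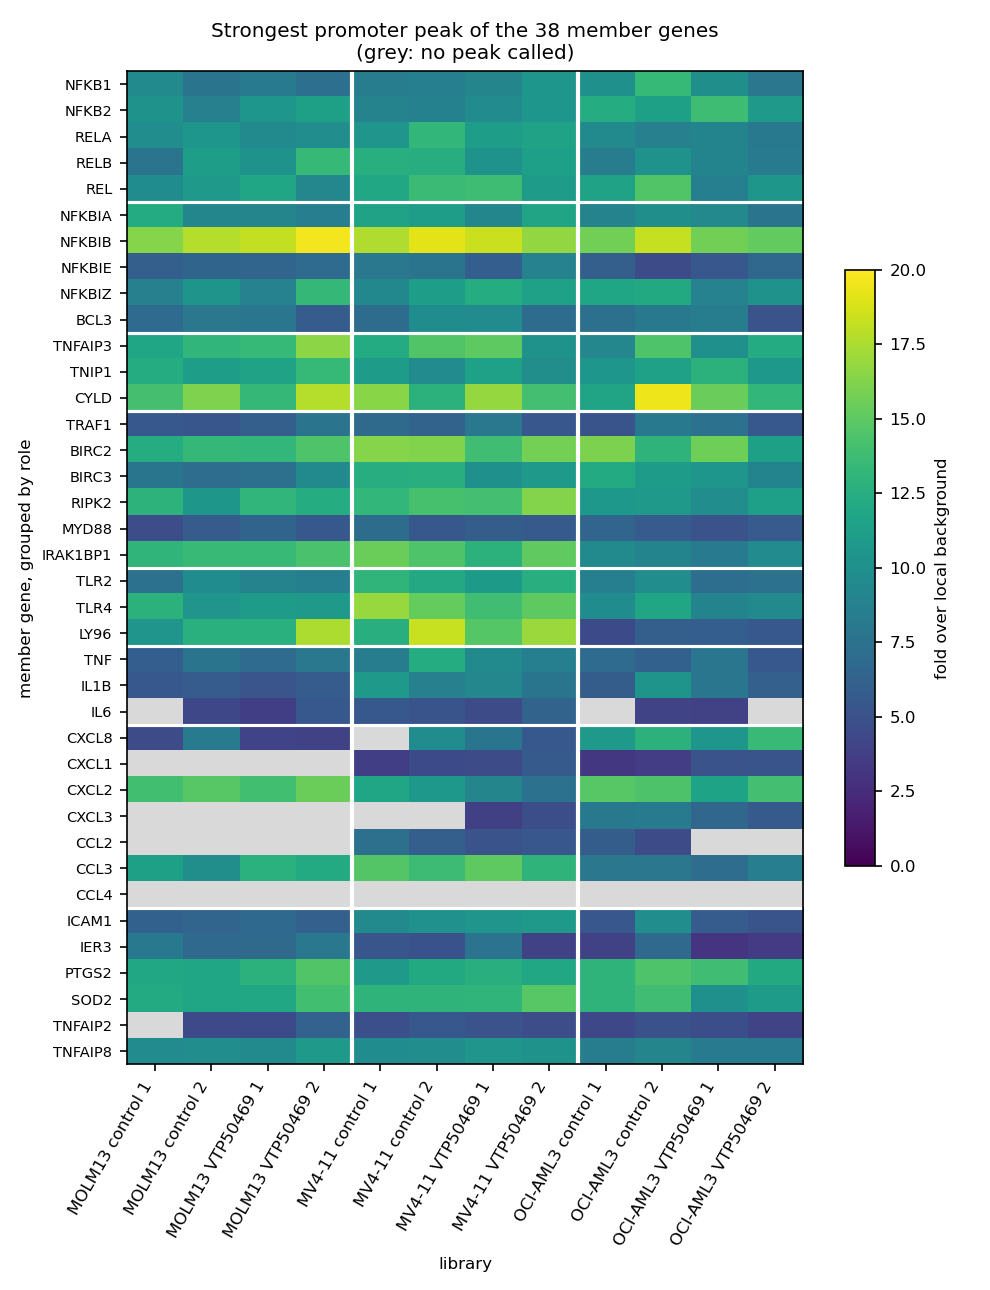
Fold over local background (colour) of the strongest promoter peak of each of the 38 member genes (rows, grouped by role) in each of the 12 libraries (columns), grey where no peak was called. The grey cells lie at CCL4, at CXCL1, CXCL3 and CCL2 in MOLM13 and at a few libraries of IL6, CXCL8, CXCL3, CCL2 and TNFAIP2.

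Strength was compared as the authors' fold enrichment of the reads at the summit over the local background of the same library. Folds were ranked within each library and turned into normal scores, on which 1 unit is 1 SD of all features of that library, and limma tested differences across all features with Benjamini-Hochberg adjustment. Differences below are in normal scores, the first line minus the second, with their SE. Each line entered as the mean of its control and treated groups, so these are not differences between untreated cells alone.

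The transcription factor subunits had promoters open in every library. NFKB2 encodes p100, the precursor of p52 that acts in the alternative pathway. Its promoter had folds of 10.3, 8.69, 10.5 and 11.4 in MOLM13 (controls first, then treated, here and throughout), of 8.91, 8.78, 9.64 and 10.5 in MV4-11 and of 12.4, 11.4, 13.8 and 10.8 in OCI-AML3. All OCI-AML3 libraries stood above all MV4-11 libraries. The difference of MV4-11 minus OCI-AML3 was -1.10 ± 0.23 (limma, adjusted p = 0.00817). NFKB1, which encodes p105 and p50, was also lower in MV4-11, at 8.48, 8.67, 9.07 and 10.5 against 10.1, 13.4, 9.93 and 7.95 in OCI-AML3. These values overlapped, and the difference was -0.68 ± 0.20 (adjusted p = 0.0395). RELA, the main activating subunit, had a promoter fold of 8.12 to 13.2 over the 12 libraries, RELB one of 7.71 to 13.4 and REL one of 8.61 to 14.6, and none of the 3 was called in any pair of lines. A region in the REL locus 45.8 kb past its start (chr2:60926903-60927759) had folds of 20.2, 16.7, 18.6 and 12.2 in MV4-11 and of 8.03, 7.08, 8.12 and 11.8 in OCI-AML3, which did not overlap as folds, although the normal scores did. Its difference was 1.42 ± 0.38 (adjusted p = 0.0232), a call lost in 4 of 12 fits without 1 library.

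Among the inhibitors, no promoter differed between lines by the test. NFKBIA encodes I-kappaB alpha, the classical inhibitor and a target of NF-kappaB itself. Its promoter had folds of 12.3, 9.16, 9.08 and 8.56 in MOLM13, of 11.5, 11.1, 9.20 and 11.7 in MV4-11 and of 8.97, 9.97, 9.45 and 7.66 in OCI-AML3, and the 3 ranges overlapped. BCL3, an atypical member that binds p50 and p52 homodimers in the nucleus, ranged from 5.85 to 7.90 in MOLM13, from 7.04 to 9.71 in MV4-11 and from 5.11 to 8.49 in OCI-AML3. NFKBIB ranged from 15.2 to 19.6, NFKBIE from 4.64 to 8.87 and NFKBIZ from 8.72 to 13.3 over the 12 libraries. A distal region 8.13 kb past the NFKBIE start, which also holds the start of SLC35B2, was lower in MOLM13 and in MV4-11 than in OCI-AML3, by -0.98 ± 0.29 (adjusted p = 0.0455) and by -0.93 ± 0.29 (adjusted p = 0.0435). The calls were lost in 11 and 9 of 12 fits that left out 1 library, and the direction of the first turned when recovered reads were ranked in place of folds.

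Of the negative feedback genes, TNIP1, which helps the A20 protein to restrain signalling, was called. Its promoter had folds of 11.0, 9.63, 11.4 and 9.90 in MV4-11 and of 10.5, 11.4, 12.9 and 10.7 in OCI-AML3. The ranges of these folds overlapped, while the normal scores of the lines did not, and the difference was -0.69 ± 0.20 (adjusted p = 0.0382). TNFAIP3, which encodes A20, had folds of 11.9, 13.2, 13.4 and 16.5 in MOLM13, of 12.3, 14.6, 15.1 and 10.3 in MV4-11 and of 9.29, 14.5, 10.1 and 12.3 in OCI-AML3, with full overlap. CYLD, a deubiquitinase, ranged from 11.7 to 19.5.

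Among adaptor and survival genes, the IRAK1BP1 promoter was weaker in OCI-AML3. Its folds were 13.1, 13.5, 13.6 and 14.2 in MOLM13 and 15.5, 14.5, 12.9 and 15.1 in MV4-11, against 9.50, 9.03, 8.30 and 9.62 in OCI-AML3. All OCI-AML3 libraries were below all others, and the differences were 0.94 ± 0.20 for MOLM13 (adjusted p = 0.0110) and 0.81 ± 0.20 for MV4-11 (adjusted p = 0.0170). BIRC3, which encodes the apoptosis inhibitor cIAP2, went the other way, with 7.79, 7.17, 7.41 and 9.57 in MOLM13 against 12.3, 11.1, 10.5 and 8.99 in OCI-AML3. The folds overlapped and the normal scores did not, and the difference was -0.79 ± 0.20 (adjusted p = 0.0266). The flanks of BIRC3 and its neighbour BIRC2 overlap, so that some regions belong to both loci. BIRC2 (11.4 to 16.4), RIPK2 (9.80 to 16.3), MYD88 (4.75 to 7.05) and TRAF1 (5.20 to 8.12) were called at the promoter in no pair.

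LY96, among the receptors, had the largest promoter difference of the 37 members tested. It encodes MD-2, the protein through which TLR4 binds lipopolysaccharide. Its promoter had folds of 10.4, 12.7, 12.7 and 17.6 in MOLM13, of 12.5, 18.3, 14.8 and 17.0 in MV4-11 and of 4.52, 6.07, 5.94 and 5.54 in OCI-AML3. Every OCI-AML3 library was below every MLL1-r library. The promoter difference was 1.67 ± 0.31 for MOLM13 minus OCI-AML3 (adjusted p = 0.00589) and 1.92 ± 0.31 for MV4-11 minus OCI-AML3 (adjusted p = 0.00189), and the calls held without any single library. TLR4 was also higher in MV4-11, at 16.9, 15.2, 13.9 and 15.1 against 9.75, 11.8, 8.99 and 9.48 in OCI-AML3, a difference of 0.81 ± 0.22 (adjusted p = 0.0286). TLR2, the receptor of bacterial lipoproteins, had 13.1, 12.04, 10.9 and 12.6 in MV4-11, 7.495, 9.76, 8.91 and 8.61 in MOLM13 and 8.64, 9.84, 7.21 and 7.43 in OCI-AML3. The MV4-11 folds were all above the rest, but no pair passed the test.

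The cytokine promoters were open and did not pass the test in any pair. The TNF locus also holds LTA and LTB. The TNF promoter had folds of 5.97, 7.70, 7.01 and 8.04 in MOLM13, of 8.45, 12.4, 9.47 and 8.65 in MV4-11 and of 6.99, 6.18, 7.88 and 5.53 in OCI-AML3. IL1B had 10.9, 8.69, 9.29 and 7.78 in MV4-11, against 5.52, 5.84, 5.28 and 5.85 in MOLM13 and 5.90, 10.3, 7.82 and 6.17 in OCI-AML3. In both genes the MOLM13 folds lay below those of MV4-11. IL6 was called in 4 of 4 MV4-11 libraries (folds of 4.68 to 6.36), in 3 of 4 MOLM13 libraries and in 2 of 4 OCI-AML3 libraries. A region 2.85 kb before the IL1B start (chr2:112839239-112840021) was lower in MV4-11, with 4.82, 7.58, 7.995 and 5.32 against 7.08, 7.99, 8.85 and 7.58 in OCI-AML3. The folds overlapped and the normal scores did not, with a difference of -1.24 ± 0.33 (adjusted p = 0.0251) that was lost in 5 of 12 fits without 1 library. This region also holds the start of the non-coding gene AMANZI.

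Chemokine promoters were called in all 3 pairs of lines, and the order of the lines was not the same in each gene. CXCL8, the neutrophil attractant interleukin-8, had promoter folds of 10.8, 12.8, 10.5 and 13.5 in OCI-AML3 and of 4.66, 8.24, 4.01 and 3.95 in MOLM13. In MV4-11 it was not called in 1 control and had 9.73, 7.80 and 5.47 in the others. Every OCI-AML3 library was above every library of the other lines, with differences of -1.68 ± 0.34 for MOLM13 (adjusted p = 0.00965) and -1.74 ± 0.34 for MV4-11 (adjusted p = 0.00600).

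CXCL3, a ligand of the same receptor, CXCR2, was called in 4 of 4 OCI-AML3 libraries (8.06, 8.30, 6.58 and 5.68), in the 2 treated MV4-11 libraries (3.78 and 4.796) and in no MOLM13 library. The differences were -1.29 ± 0.16 for MOLM13 minus OCI-AML3 (adjusted p = 4.00e-04) and -1.34 ± 0.16 for MV4-11 minus OCI-AML3 (adjusted p = 2.52e-04). CXCL1 was called in all MV4-11 libraries (3.74, 4.50, 4.65 and 5.69), in all OCI-AML3 libraries (3.27, 3.60, 5.14 and 5.18) and in no MOLM13 library. Its difference was -0.66 ± 0.16 for MOLM13 minus OCI-AML3 (adjusted p = 0.0209), a call that was lost in 6 of 12 fits without 1 library. A promoter without a peak took the lowest rank of its library, so that the sizes of these differences depend on that rank. A promoter that passed the filter of 4 libraries through 1 line alone had to differ. CXCL3 passed that filter only with the OCI-AML3 libraries, where it is high. Its calls were thus largely fixed in advance, and nothing is read from them beyond the peaks themselves.

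CXCL2 showed another order. Its promoter had folds of 14.0, 14.8, 13.9 and 15.5 in MOLM13, of 14.8, 14.5, 11.6 and 14.0 in OCI-AML3 and of 11.8, 10.6, 9.08 and 7.49 in MV4-11. MV4-11 was lower than MOLM13, by 1.47 ± 0.21 (MOLM13 minus MV4-11, adjusted p = 9.15e-04), and lower than OCI-AML3, by -1.44 ± 0.21 (adjusted p = 8.72e-04). The CXCL2 locus held 1 peak, the promoter peak, in each library. All 4 MOLM13 libraries thus had a CXCL2 promoter peak and none had a CXCL1 or CXCL3 promoter peak.

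Of the CC chemokines, CCL3 (MIP-1 alpha) had folds of 11.4, 9.92, 12.7 and 12.2 in MOLM13, of 14.6, 13.7, 15.01 and 13.0 in MV4-11 and of 7.96, 7.92, 7.14 and 8.58 in OCI-AML3. All OCI-AML3 folds were the lowest, and the differences were 0.98 ± 0.20 for MV4-11 minus OCI-AML3 (adjusted p = 0.00692) and 0.70 ± 0.20 for MOLM13 minus OCI-AML3 (adjusted p = 0.0465). CCL3 and CCL4 have near-identical copies nearby, so that their peaks, and the lack of them at CCL4, are uncertain. CCL2 (MCP-1), a monocyte attractant, was called in no MOLM13 library and in 4 of 4 MV4-11 libraries (7.38, 6.06, 5.15 and 5.43), a difference of -0.68 ± 0.17 (adjusted p = 0.0379). In OCI-AML3 it was called in the 2 controls and in neither treated library. CCL2 passed the filter of 4 libraries only with the MV4-11 libraries. The call was thus largely fixed in advance, and nothing is read from it.

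**Figure D2:**
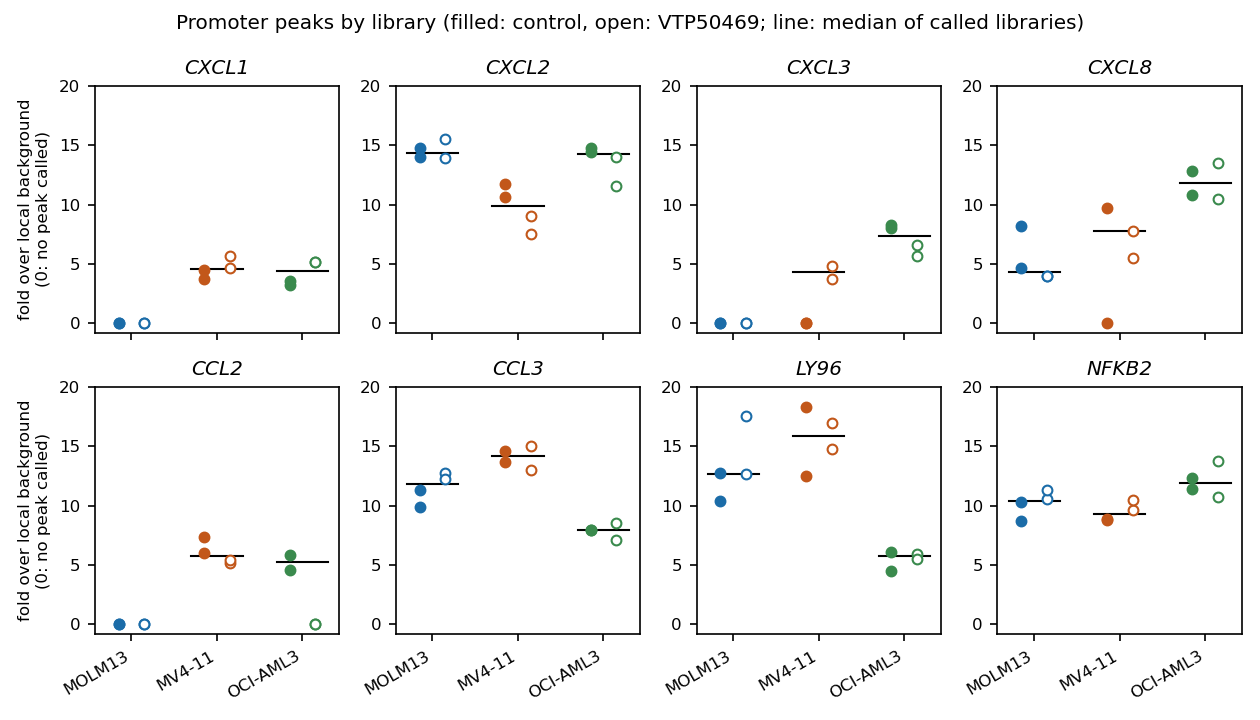
Fold over local background of the strongest promoter peak (y axis, 0 where no peak was called) for 8 member genes by cell line, with filled points for control and open points for VTP50469 libraries and a line at the median of the called libraries. CXCL8 and CXCL3 are highest in OCI-AML3, CXCL2 is lowest in MV4-11, LY96 is lowest in OCI-AML3, and CXCL1, CXCL3 and CCL2 are not called in MOLM13.

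Among the other response genes, PTGS2, which encodes the prostaglandin synthase COX-2, had folds of 10.7, 12.1, 12.6 and 11.98 in MV4-11 and of 13.0, 14.5, 13.8 and 12.1 in OCI-AML3. The folds overlapped and the normal scores did not, and the difference was -0.91 ± 0.18 (adjusted p = 0.00601). ICAM1, the adhesion molecule, had 9.50, 10.1, 10.4 and 10.8 in MV4-11 against 6.19, 6.56, 6.85 and 6.17 in MOLM13 and 5.46, 9.79, 5.86 and 5.22 in OCI-AML3, and no pair passed the test. SOD2, the mitochondrial superoxide dismutase, ranged from 10.0 to 14.8, TNFAIP8 from 8.23 to 10.7 and TNFAIP2 from 4.12 to 6.29 where called. IER3, an early response gene, had 2 regions. The promoter region (chr6:30744073-30744700) was higher in MOLM13 than in OCI-AML3 by 1.82 ± 0.41 (adjusted p = 0.0131). That fit covers only regions called in all 12 libraries, and in the promoter fit IER3 was called in no pair. Its strongest promoter folds were 6.83 to 8.10 in MOLM13 and 3.12 to 6.86 in OCI-AML3. A region 1.75 kb past the start, which also holds the start of FLOT1, was lower in MV4-11 than in OCI-AML3 by -1.05 ± 0.31 (adjusted p = 0.0361), a call lost at the stricter peak threshold (−log10 q of 5) and in 7 of 12 fits without 1 library. The call of the promoter region was lost without the first OCI-AML3 control.

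Over all 37 member promoters tested (all but CCL4), 2 were called for MOLM13 against MV4-11, where 6.41% of 17907 promoters were. For MOLM13 against OCI-AML3, 7 were called (3 higher and 4 lower in MOLM13), where 9.72% of all were. For MV4-11 against OCI-AML3, 11 were called (4 higher and 7 lower in MV4-11), where 16.3% of all were. The members' shares were 5.41%, 18.9% and 29.7%. The median difference over the members was 0.05, -0.05 and -0.15, against 0.05, 0.00 and -0.05 over all promoters. With the 6 control libraries alone, 0, 1 and 1 member promoters were called, the 1 being CXCL3 in both pairs. Among the controls CXCL3 had a peak in OCI-AML3 alone. It entered that fit through this line only and so had to differ, and nothing is read from the call. With recovered summit reads in place of folds, 11, 17 and 16 member promoters were called, where 18.4%, 29.1% and 27.8% of all were. Without 1 library, the promoter calls of CXCL3, largely fixed by the filter, and of CXCL2, CXCL8, LY96, NFKB2 and PTGS2 held in all 12 fits. Those of CCL3 (MOLM13 against OCI-AML3), CCL2, TNIP1, NFKB1 and TLR4 were lost in 11, 8, 7, 6 and 6 of the 12, those of BIRC3 in 5 and of IRAK1BP1 (MV4-11 against OCI-AML3) in 4.

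**Figure D3:**
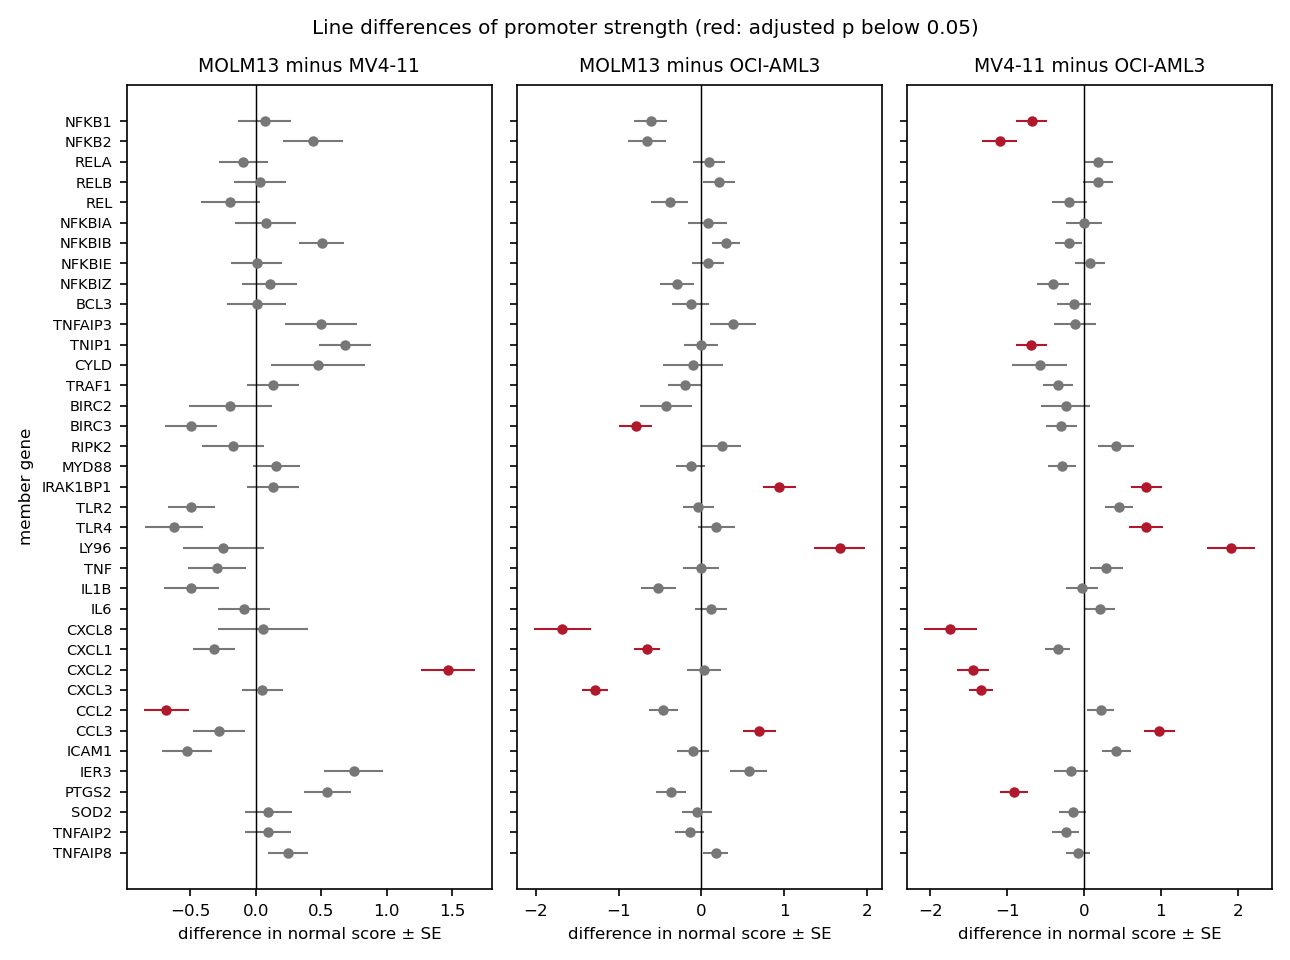
Difference in normal score of the promoter (x axis, points with SE bars) for the 37 member genes tested in each pair of lines, red where the adjusted p was below 0.05. The red points lie at 2, 7 and 11 genes in the 3 panels. They include chemokines in every panel and LY96 in the pairs with OCI-AML3. For MOLM13 against OCI-AML3 they also lie at IRAK1BP1 and BIRC3. For MV4-11 against OCI-AML3 they also lie at PTGS2, NFKB1, NFKB2, TNIP1, IRAK1BP1 and TLR4. The red points of CXCL3 and CCL2 were largely fixed by the filter.

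Of the 50 other genes of the pathway, 46 promoters were tested, and 0, 0 and 3 were called higher and 2, 4 and 3 lower in the first line of the 3 pairs. The smallest adjusted p belonged to IL1R1, the interleukin-1 receptor, with folds of 11.9, 14.7, 11.9 and 9.27 in MV4-11 and, in MOLM13, a peak in the 2 treated libraries alone (5.25 and 5.94). The difference of MOLM13 minus MV4-11 was -1.53 ± 0.20 (adjusted p = 4.88e-04). VCAM1, an adhesion molecule and NF-kappaB target, was called in the 4 MV4-11 libraries (4.30 to 9.01) and in no other. It passed the filter through MV4-11 alone and so had to differ, and nothing is read from its calls, which are among the 2 and 6 of the first and the third pair. CD14, the co-receptor of TLR4, was called in 1 MOLM13 library and in all of OCI-AML3, with -1.26 ± 0.20 (adjusted p = 0.00236). CCL5, a chemokine of T cells and monocytes, was lower in MV4-11 than in OCI-AML3 by -1.09 ± 0.19 (adjusted p = 0.00294).

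The same comparison over regions called in all 12 libraries covered 58 member regions. For MOLM13 against MV4-11, 2 member regions were called, where 4.42% of 23338 regions were. For MOLM13 against OCI-AML3 there were 6, with 8.79% of all, and for MV4-11 against OCI-AML3 there were 12, with 13.6% of all. The distal calls included a region 3.56 kb past the CXCL1 start (chr4:73872691-73873218), at 5.11, 5.16, 4.07 and 6.89 in MOLM13 and 8.54, 8.92, 8.54 and 8.16 in OCI-AML3. Its difference was -1.54 ± 0.32 (adjusted p = 0.00799), in the direction of the CXCL1 promoter. A region 73.0 kb into TNFAIP8 (chr5:119341457-119342122), a gene of apoptosis control, was at 11.99, 7.58, 11.7 and 11.1 in MV4-11, 3.52, 5.71, 4.22 and 4.96 in MOLM13 and 4.37, 5.44, 4.58 and 5.85 in OCI-AML3. All MV4-11 folds were above the rest, although the normal scores overlapped those of OCI-AML3. The differences were -1.85 ± 0.38 for MOLM13 minus MV4-11 (adjusted p = 0.0127) and 1.35 ± 0.38 for MV4-11 minus OCI-AML3 (adjusted p = 0.0294), lost in 3 and 6 of 12 fits without 1 library.

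Some sites were called in every library of a line and absent from another. Of the 309 member regions, 24 (7.77%) showed this pattern, against 7.81% of all regions. Of these, 7 distal sites were called in MV4-11 alone (2.27% of the member regions, against 2.01% of all regions). In MOLM13 alone and in OCI-AML3 alone there were 0, where 0.124% and 0.245% of all regions were. The 7 sites lay in the loci of NFKB1, BCL3, TNIP1, CXCL1, TNFAIP2, TNFAIP8 and TRAF1. The strongest lay 92.0 kb into NFKB1 (chr4:102593104-102593523), with folds of 9.28, 16.8, 7.29 and 11.4. The site 14.6 kb past the BCL3 start (chr19:44762194-44762495) had 6.87, 9.60, 8.91 and 7.65.

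A further 4 distal regions were called in all 8 MLL1-r libraries and in no OCI-AML3 library (1.29% of member regions, against 0.969% of all). They lay in the loci of RELB, NFKBIB, ICAM1 and RIPK2. The RELB site (chr19:45016271-45017280), 15.3 kb past the start, had folds of 5.58, 6.55, 5.71 and 7.47 in MOLM13 and of 10.4, 12.1, 9.71 and 9.99 in MV4-11. The ICAM1 site (chr19:10286566-10287427) also holds the start of ICAM4, and the NFKBIB site that of CCER2. In the ICAM1 site the folds were 7.10, 7.54, 7.62 and 7.21 in MOLM13 and 6.09, 5.92, 7.53 and 8.03 in MV4-11. The CXCL1 promoter was the reverse case, called in all 8 libraries of MV4-11 and OCI-AML3 and in no MOLM13 library. OCI-AML3 had the fewest peaks of the lines and MV4-11 the most, and the part of depth in these patterns was not tested.

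**Figure D4:**
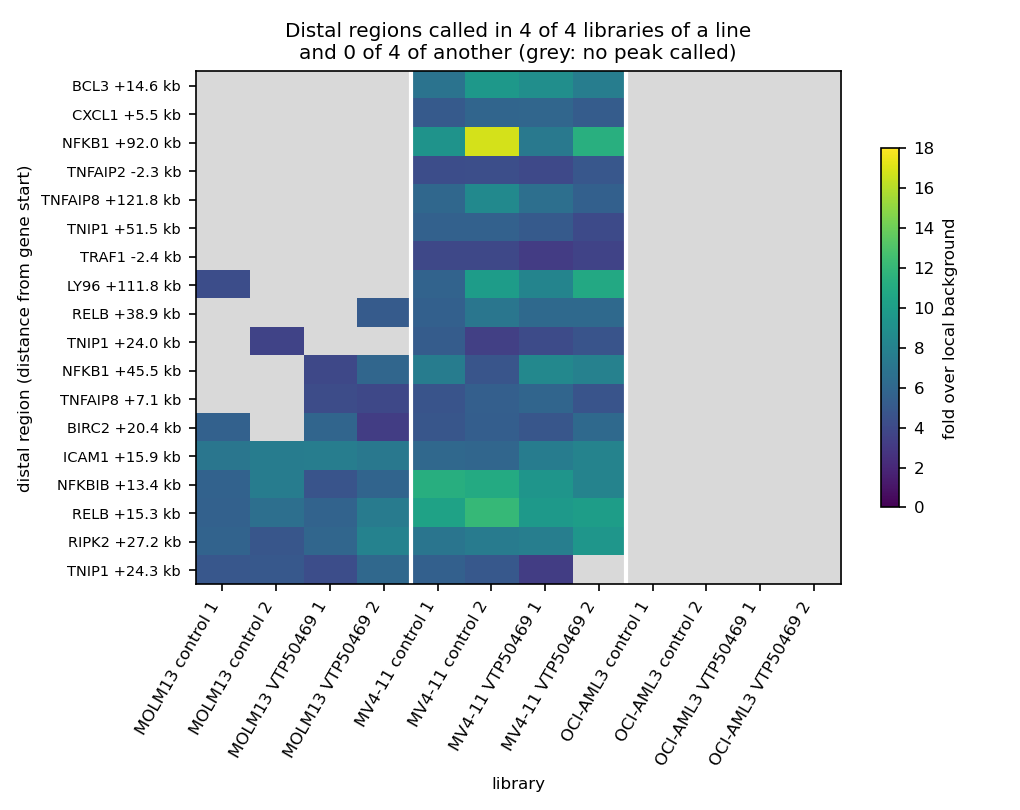
Fold over local background (colour, grey where no peak was called) of the 18 distal member regions called in 4 of 4 libraries of a line and 0 of 4 of another, with rows named by gene and by distance from the gene start. The upper 7 rows are called in MV4-11 alone, and no row is called in OCI-AML3.

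The number of peaks per locus was compared after scaling to the peaks of each library. Of 36 loci tested, 2 were called for MOLM13 against MV4-11 (3.57% of 22880 loci), 3 for MOLM13 against OCI-AML3 (10.7% of all) and 5 for MV4-11 against OCI-AML3 (17.6% of all). Without 1 library the counts ranged from 0 to 3, 1 to 4 and 1 to 5, and with a −log10 q of at least 5 they were 10, 5 and 19 (9.47%, 11.7% and 40.4% of all). The lowest counts came without the first MV4-11 control or the second treated MV4-11 library in the first pair, without the second MOLM13 control, the first treated MOLM13 library or the second OCI-AML3 control in the second, and without the first MV4-11 control in the third. ICAM1 held 6, 7, 7 and 8 peaks in MOLM13 and 2, 5, 5 and 3 in MV4-11, and the difference in log2 scaled number was 1.18 ± 0.25 (adjusted p = 0.0210). This call was lost in 6 of 12 fits without 1 library and with a −log10 q of at least 5. CXCL1 held 1, 1, 1 and 2 peaks in MOLM13 and 2, 3, 4 and 2 in OCI-AML3, a difference of -0.94 ± 0.23 (adjusted p = 0.0192). IRAK1BP1, TNIP1, NFKBIB, NFKBIE, RELA and NFKBIA gave the other calls. As MV4-11 had the most peaks to scale by, 1 peak in NFKBIA in 3 of its libraries and 2 in each OCI-AML3 library came to -0.89 ± 0.20 (adjusted p = 0.0114). That call was lost without the first MV4-11 control.

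MI treatment moved no member past the test, which had little power for small shifts. On simulated data with shifts of 1 unit, 2, 1 and 1 of 50 planted regions were recovered in MOLM13, MV4-11 and OCI-AML3. With shifts of 2 units, 33, 28 and 27 were. Of member regions called in all 4 libraries, 0 of 85 passed for MOLM13, 0 of 108 for MV4-11 and 0 of 68 for OCI-AML3, and 0% of all 41518, 70124 and 30982 regions did (limma, adjusted p under 0.05). At an unadjusted p under 0.05 there were 2, 1 and 3 member regions, while 5.61%, 6.58% and 5.80% of all regions were. As the mean of the 3 lines, 0 of 58 member regions and 0 of 37 member promoters passed, with 0% of all in either fit. In each, 2 members stood at an unadjusted p under 0.05, where 6.41% of all regions and 6.36% of all promoters did. The treatment shift of no member region differed between lines (0 of 58, with 0% of all). For this difference, 1 stood at an unadjusted p under 0.05, where 6.08% of all regions did. The median shift of the member regions was 0.05, 0.09 and 0.04 in the 3 lines, against -0.01, 0.02 and 0.00 over all regions.

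The 6 member regions at an unadjusted p under 0.05 within a line are given as values. In MOLM13 the CXCL8 promoter went from folds of 4.66 and 8.24 to 4.01 and 3.95, a shift of -1.42 ± 0.54 (treated minus control, limma, adjusted p = 0.878). In OCI-AML3 the CXCL1 promoter went from 3.27 and 3.60 to 5.14 and 5.18, a shift of 1.83 ± 0.46 (adjusted p = 0.820). The others were a TNIP1 region in MOLM13 (1.22 ± 0.44), a TNFAIP8 region in MV4-11 (-1.26 ± 0.42), and in OCI-AML3 the IER3 promoter (-1.61 ± 0.56) and a SOD2 region (1.56 ± 0.58). CXCL1 was also higher in both treated MV4-11 libraries than in both controls. In the promoter fit, the shifts of the promoters named above were smaller. They were -0.59 ± 0.49 for CXCL8 in MOLM13 and, in OCI-AML3, 0.43 ± 0.22 for CXCL1 and -0.28 ± 0.31 for IER3. None of these had an unadjusted p under 0.05 in that fit. There, 4 other members stood at an unadjusted p under 0.05 within a line. The share of all promoters at that level is not given here, and nothing is read from the 4 beyond their values. The SOD2 promoter in OCI-AML3 had folds of 12.97 and 13.8 in the controls and 10.01 and 10.9 after treatment, opposite to the SOD2 region, with a shift of -0.58 ± 0.26 (adjusted p = 0.686). The CXCL2 promoter in MV4-11 stood at 11.8 and 10.6 in the controls and 9.08 and 7.49 after treatment, a shift of -0.66 ± 0.29 (adjusted p = 0.949). CXCL3 in MV4-11 (0.62 ± 0.22) and CCL2 in OCI-AML3 (-0.65 ± 0.25) were called in 1 of the groups only, so that these shifts depend on the lowest rank. As the mean of the lines, the promoter shifts were -0.40 ± 0.17 for CXCL2 and -0.34 ± 0.14 for CCL2 (adjusted p = 0.754 for both), and the regions were 1 each in BIRC3 (-0.55 ± 0.26) and SOD2 (-0.63 ± 0.28). The region whose shift differed between lines at an unadjusted p under 0.05 was the REL region 45.8 kb past the start (adjusted p = 0.819).

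**Figure D5:**
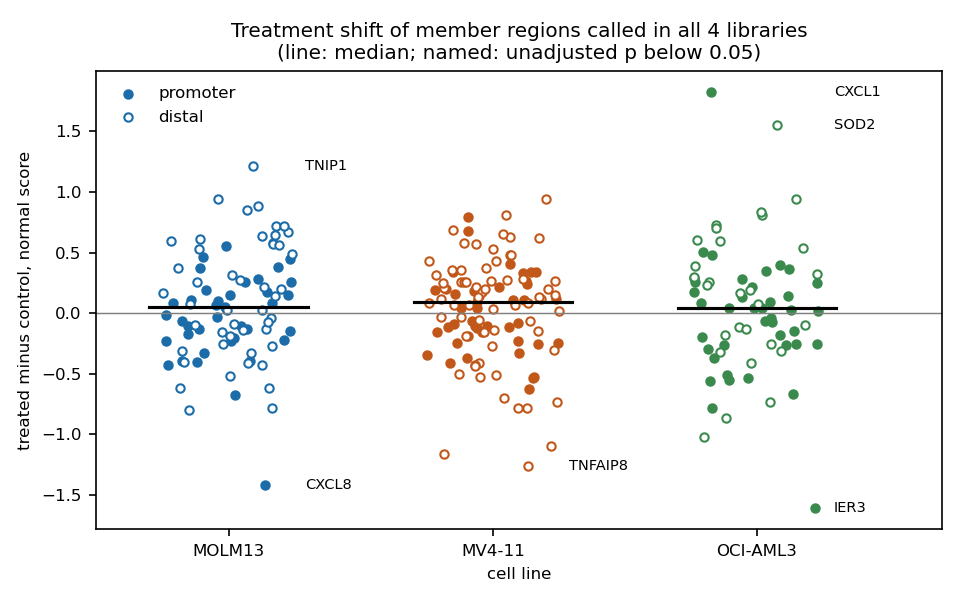
Treated minus control difference in normal score (y axis) of the 85 (MOLM13), 108 (MV4-11) and 68 (OCI-AML3) member regions that had a peak in 4 of 4 libraries, with filled points for promoters, open points for distal regions and a line at the median. The medians lie at 0.05, 0.09 and 0.04, and the 6 named regions had an unadjusted p under 0.05 and none an adjusted p under 0.05.

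Control and treated scores did not overlap at 9 of 32 member promoters in MOLM13 (4 higher and 5 lower after treatment), where 33.6% of 14742 promoters did not. In MV4-11 it was 12 of 35 (5 higher and 7 lower, with 34.6% of all), and in OCI-AML3 12 of 35 (4 higher and 8 lower, with 34.1% of all). The members thus stood near the share of all promoters, and nothing is read from the directions of single genes. As values only, NFKBIA was lower in both treated MOLM13 libraries and TNFAIP3 was higher there. NFKB1 was higher in treated MV4-11 and lower in treated OCI-AML3 libraries, with none past the test.

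Presence changed at few member sites. Lost regions had a peak in the 2 control libraries of a line and none in the 2 treated ones, and gained regions the reverse, which 2 against 2 libraries cannot test. MOLM13 lost 7 and gained 4 of 215 member regions, where 1.3% and 3.22% of all regions were lost and gained. MV4-11 lost 4 and gained 3 of 219 (2.75% and 1.92% of all), and OCI-AML3 lost 3 and gained 3 of 170 (2.57% and 1.32% of all). These 24 sites were weak, with a highest −log10 q of 2.31 to 8.56 (median 4.35), while member regions called in all 4 libraries had a median of 19.2.

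At promoters, OCI-AML3 lost the CCL2 region (chr17:34254987-34255288), which had folds of 5.89 and 4.59 in the controls and 9 and 7 reads at the summit. MV4-11 gained the CXCL3 promoter (chr4:74038759-74039003), with folds of 3.78 and 4.796 on 6 and 7 reads. MV4-11 lost a region at CYLD (4.27 and 4.70), 0.596 kb past the start, and MOLM13 lost 1 at BCL3 (4.46 and 4.11). In both genes a stronger promoter peak was called in all libraries.

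The distal sites lost in MOLM13 lay in CYLD, TNIP1, NFKBIE, LY96 and TNFAIP8 (2 sites), and those gained lay in NFKB1, CXCL3, IL6 and TLR4. MV4-11 lost sites in IRAK1BP1, SOD2 and TLR4 and gained 1 in TNFAIP8, and OCI-AML3 lost sites in NFKBIZ and TNIP1 and gained 2 in IRAK1BP1. A BCL3 site was gained in both other lines at overlapping places, at chr19:44754277-44754547 in MV4-11 (folds of 4.79 and 4.68) and at chr19:44754392-44754644 in OCI-AML3 (3.71 and 4.76). It lies 6.71 and 6.81 kb past the BCL3 start, and in MOLM13 an overlapping peak was called in 1 library.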

How the data were processed

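Bulk ATAC-Seq of 12 libraries was analysed from the deposited peak lists. Per the labels, the authors worked on hg38 with MACS2 2.1.0 as peak caller, after bcl2fastq 2.17, Trimmomatic 0.33 and the aligner Bowtie 1.1.2, and called peaks in each library separately. The supplementary methods name another aligner. The deposited score, the ratio (fold over local background), the −log10 p and −log10 q and the summit offset in bp are those of the peak in its own library and had not been normalised between libraries. The lowest −log10 q was about 1.30, the limit of every list. Summit reads were recovered from fold and p within a tolerance of 0.001. Such reads are not independent molecules.

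Gene positions came from RefSeq (GRCh38.p14), with the strand of 7 members taken from GENCODE by symbol. Of 1200433 peaks, 956 outside the autosomes and X were left out. Peaks overlapping by 1 bp were merged. The normal scores of the ranked folds entered limma 3.58.1 (R 4.3.3, two-sided, Benjamini-Hochberg over all features, called at 0.05). Promoters called in at least 4 libraries were tested, with uncalled promoters tied at the lowest rank. Peak numbers were tested as log2(1 + scaled number) in loci with a mean of at least 1 scaled peak. On simulated data with shifts of 2 units, 33, 28 and 27 of 50 planted regions were recovered in the treatment fits of MOLM13 (41518 regions), MV4-11 (70124) and OCI-AML3 (30982), and of shifts of 1 unit 2, 1 and 1. Named were members called in a fit or with a lost or gained region and 14 core genes, and of the other pathway genes those with the smallest p. The members, lists and tests were chosen with earlier results of these data known. Alternatives were a stricter peak threshold, another overlap, another measure of strength, another scaling, other promoter, locus and filter limits, a replicate block, control libraries alone and the leaving out of each library. Some cell type markers are not reported here.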

Additional observations from a re-analysis of the deposited data

Results flagged for a closer look

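At the CXCL3 promoter, treated minus control was 0.62 ± 0.22 in normal scores in MV4-11, where both treated libraries and neither control had a peak, and -0.33 ± 0.22 in OCI-AML3, where both treated libraries (6.58 and 5.68) were below both controls (8.06 and 8.30). The libraries of the lines thus moved in opposite directions. In MV4-11 the peaks stood on 6 and 7 summit reads, and the size of the shift depends on the lowest rank. Control and treated scores did not overlap at 34.6% of promoters called in all 4 libraries of MV4-11 and at 34.1% in OCI-AML3. The NFKB1 and NFKBIZ promoters were also higher in treated MV4-11 and lower in treated OCI-AML3 libraries. The difference between the lines was not tested at this promoter, which was not called in all 12 libraries, and no group was large enough to look for a single library apart.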

How the results depend on the processing

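Of 50 member calls between lines, 18 held in all 12 fits without 1 library, and 17 were lost in 6 or more. The 18 include every call of LY96, CXCL2, CXCL8 and NFKB2, and those of CXCL3, which the filter largely fixed. The fits without 1 library gave 1 to 3, 3 to 6 and 4 to 13 regions, 1 to 2, 4 to 6 and 7 to 11 promoters and 0 to 3, 1 to 4 and 1 to 5 loci in the 3 pairs (MOLM13 against MV4-11, MOLM13 against OCI-AML3 and MV4-11 against OCI-AML3, here and below), and 0 in every treatment fit. With recovered summit reads in place of folds, 11, 18 and 19 regions and 11, 17 and 16 promoters were called, and 34 of 40 calls were kept. The NFKBIE region, MOLM13 minus OCI-AML3, turned to 0.22 (adjusted p = 0.442). With the 6 control libraries alone, 0, 0 and 2 regions, 0, 1 and 1 promoters (CXCL3, fixed by the filter) and 0, 1 and 0 loci were called, from fewer samples. With a −log10 q of at least 5, there were 1, 4 and 6 regions, 1, 6 and 11 promoters, 10, 5 and 19 loci, and 1, 8 and 3 lost or gained regions in MOLM13, MV4-11 and OCI-AML3, and the cause was not tested. The replicate numbers did not pair the libraries. For this, replicate 2 minus replicate 1 of the controls was set against the same difference of the treated libraries. The correlation of these 2 differences over regions was 0.0362, 0.0204 and 0.00786 in the 3 lines. With the replicate block, 3, 3 and 12 regions, 1, 5 and 9 promoters and 2, 3 and 6 loci were called. No alternative called a member for treatment. Depth limits the lists to sites with 3 to 5 summit reads or more.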

Other observations

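A SOD2 site outside the promoter stood out in its treatment pattern. It was called in both MV4-11 controls (4.70 and 4.51) and in neither treated library, while it was called in all libraries of both other lines, in OCI-AML3 with a shift of 1.56 ± 0.58 (treated minus control, limma, adjusted p = 0.820), while the SOD2 promoter there shifted by -0.58 ± 0.26 (adjusted p = 0.686). IL1R1, the interleukin-1 receptor, had a promoter peak in both treated MOLM13 libraries (5.25 and 5.94) and in neither control. TNIP3, a relative of TNIP1, had one in both treated OCI-AML3 libraries (5.23 and 3.82) and in no other library. These 3 were chosen after their values were seen.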
